A study of Mus musculus with 18 samples.

Results

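The transcripts of 9 genes that make, break down, carry or use the amino acid arginine were followed in spleen RNA from mice made diabetic and given an algal sugar or a microbiota transplant. The genes are Ass1, Asl, Arg1, Arg2, Nos2, Slc7a2, Odc1, Oat and Gatm. They were taken by symbol from a table of 19320 gene names, and all 9 were found. They were selected on their RPKM levels and group differences in this table, among them the lower Ass1 level after streptozotocin, so their levels and fold changes are given as a description, with no p-value for any of them. Albumin (Alb), which hepatocytes secrete, was followed as a check for liver RNA.

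The table holds 18 libraries of poly(A) RNA from spleens of ICR mice at 10 weeks of age, 3 in each of 6 groups. Con mice, the controls, ate regular diet and were given saline. A10 mice received AOS (alginate oligosaccharide, a short sugar chain made from a brown algal polysaccharide) at 10 mg/kg. STZ mice received streptozotocin, a toxin of the insulin-producing beta cells that is used to model type 1 diabetes. STZ-A10 mice received STZ and AOS at 10 mg/kg. Con-FMT and A10-FMT mice received STZ and then gut microbiota by mouth, from control donors or from donors dosed with AOS at 10 mg/kg. The mice were males, according to the study's methods, and streptozotocin was given as a single dose. Con and A10 were thus the groups without streptozotocin. The intestinal contents of each donor group were pooled, so each transplant group rests on 1 donor pool. The route and timing of AOS in A10 and STZ-A10 are not given in the sources used here. The labels do not say whether each library is from its own animal, so p-values measure the spread between these libraries, which may in part be technical.

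Arginine is made from citrulline in 2 steps. Argininosuccinate synthase (Ass1) joins citrulline to aspartate, and argininosuccinate lyase (Asl) splits the product into arginine and fumarate. In the liver both enzymes serve the urea cycle, whereas in macrophages and many other cells they return the citrulline left by nitric oxide synthesis to arginine. Arginase 1 (Arg1, cytosolic) and arginase 2 (Arg2, mitochondrial) split arginine into urea and ornithine. Inducible nitric oxide synthase (Nos2) competes with them for the same arginine, which the cationic amino acid transporter Slc7a2 brings into the cell. Ornithine is passed on by ornithine decarboxylase (Odc1) to the polyamines that dividing cells need and by ornithine aminotransferase (Oat) towards proline and glutamate. Glycine amidinotransferase (Gatm) uses arginine in the first step of creatine synthesis. In the spleen, macrophages, granulocytes and red cell precursors are among the cells known to use these enzymes.

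Values are RPKM, the reads on a gene per kilobase of its length and relative to the library's mapped reads, so levels can be compared between genes. From the steps between low values, the mapped reads per library were estimated at 12440000 to 14260000, and 11532 to 12893 genes reached an RPKM of 1. All 12 lymphoid markers examined (led by Cd79a) were above 0 in every library, as were all 14 macrophage and all 11 erythroid markers. RNA of neighbouring organs was present in unequal amounts. The sum of 17 exocrine pancreas markers ran from 27.93 to 27943.49 RPKM and that of 20 hepatocyte markers (led by Trf, Alb and Serpina1c) from 65.75 to 557.08 RPKM, whereas that of 10 small intestine markers stayed at 5.03 to 29.09 RPKM. The sum of 12 neutrophil markers (led by S100a8) reached 15275.47 RPKM in Con replicate 1, and that of 8 testis germ cell markers (led by Prm1) reached 291.83 RPKM in Con replicate 2. The kidney androgen-regulated gene Kap divided the groups, with 13.33 to 25.95 RPKM in the 6 Con and STZ libraries and 0 to 0.6 RPKM in the other 12. Kap was 1 of 15 kidney markers, 11 of which stayed under 1 RPKM in every library. The testis germ cell sum divided the groups in the same way, by a narrow margin for STZ. It was 18.02 to 291.83 RPKM in Con and 2.62 to 8.69 RPKM in STZ, against 0.41 to 2.44 RPKM in the other 12 libraries. Con and STZ therefore share a feature that A10, STZ-A10 and both transplant groups lack. They are also the groups given neither AOS nor a transplant. Where Con or STZ is compared with any of the others, this feature cannot be told apart from AOS or transplant. STZ against Con, STZ-A10 against A10 and A10-FMT against Con-FMT each lie within a single Kap level. The part of this feature in the differences below was not tested. In A10-FMT replicate 3 the summed level of the lymphoid markers was the lowest of the 18 libraries, at 616.61 RPKM against up to 2848.52 RPKM.

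The 9 genes covered a wide range of abundance. Odc1 was the most abundant, with a mean of 247 RPKM over the 18 libraries, above 98.0% of the genes tested. Oat followed with a mean of 66.6 RPKM, Ass1 with 25.1, Gatm with 12.5 and Asl with 10.4. The arginases were scarce, with means of 2.53 RPKM for Arg2 and 1.23 RPKM for Arg1. Nos2 and Slc7a2 stayed under 1 RPKM in every library, with means of 0.609 and 0.504 RPKM. These 2 genes did not pass the filter of at least 1 RPKM in at least 3 libraries, so 7 of the 9 entered the fit of group differences over 12905 genes.

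**Figure D1:**
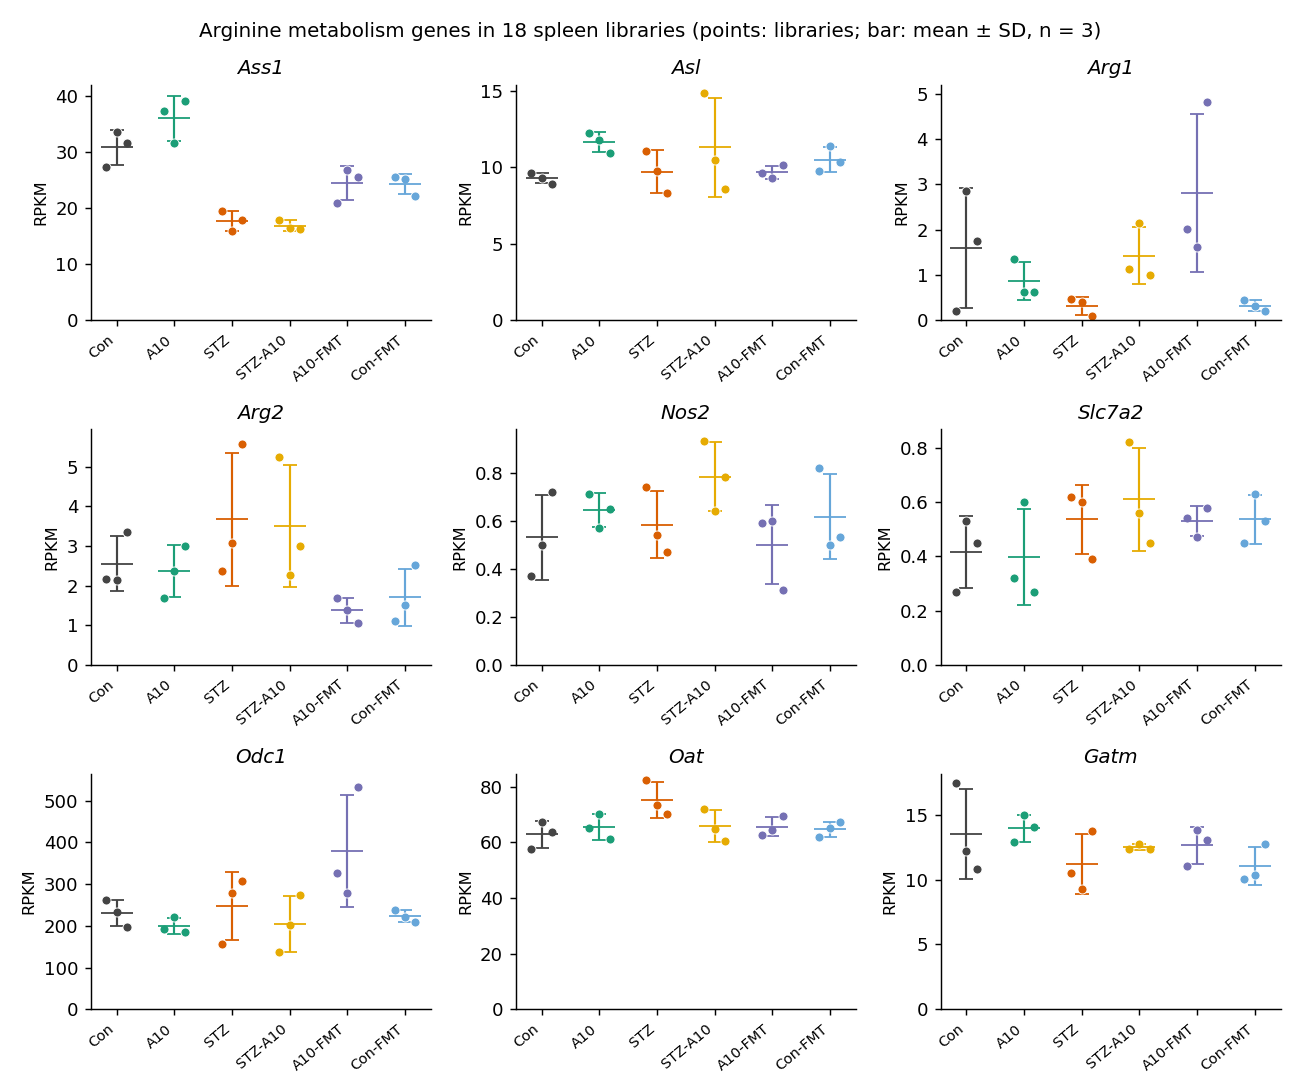
RPKM of the 9 arginine metabolism genes (one panel per gene, vertical axis in RPKM from 0, scaled per gene) in 6 groups of 3 spleen libraries. Points are libraries, and the bars give the group mean with its SD. Ass1 lies at 27.41 to 39.23 RPKM in Con and A10, at 21 to 26.75 in the transplant groups and at 15.97 to 19.5 in STZ and STZ-A10.

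Ass1 was the gene of the 9 whose groups were best separated. It lies on chromosome 2 (31470207 to 31520672, plus strand; this and all positions below are of GENCODE genes on GRCm38). Con libraries held 27.41, 33.61 and 31.61 RPKM, and A10 libraries held 37.43, 31.56 and 39.23 RPKM. STZ libraries held 19.5, 15.97 and 17.82 RPKM, and STZ-A10 libraries held 17.99, 16.4 and 16.29 RPKM. All 6 libraries of the groups without streptozotocin were therefore above all 6 libraries of STZ and STZ-A10. A10-FMT libraries held 21, 26.75 and 25.53 RPKM, and Con-FMT libraries held 25.49, 25.23 and 22.22 RPKM. The 6 transplant libraries lay between the other sets, below the lowest Con library and above the highest STZ library.

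The order of the Ass1 group means was A10 (36.1 ± 4.01 RPKM, SD, n = 3), Con (30.9 ± 3.16), A10-FMT, Con-FMT (24.4 and 24.3 RPKM), STZ (17.8 RPKM) and STZ-A10 (16.9 RPKM). Of the 15 pairs of groups, 12 did not overlap in any library. The share of all genes with as many such pairs was not computed, and Ass1 was chosen on these values, so nothing is read from the count. The 3 pairs that overlapped were A10 and Con, A10-FMT and Con-FMT, and STZ and STZ-A10. These are the 3 pairs that differ in AOS, given directly or through the donor, and not in streptozotocin or transplant. The SD of the group means on the log2(RPKM + 1) scale was 0.411, against an SD of 0.138 between libraries of a group.

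On the log2(RPKM + 1) scale, Ass1 was lower in STZ than in Con by a fold change of -0.76 (SE 0.119), and the group means differed 1.74-fold. Among the animals given AOS the same contrast, STZ-A10 against A10, was -1.05 (SE 0.119). The difference between these contrasts was -0.28 (SE 0.168). Against STZ, the fold change of Ass1 was 0.44 in A10-FMT and 0.43 in Con-FMT (SE 0.119 each), and the transplant groups differed from each other by 0.00 (0.002, SE 0.119). Against Con, the fold change was -0.33 in both transplant groups. The comparisons with STZ share the 3 STZ libraries, and those with Con share the 3 Con libraries, so they are not independent of each other. AOS alone (A10 against Con) gave 0.22, and AOS on top of streptozotocin (STZ-A10 against STZ) gave -0.07.

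In the fit over 12905 genes (limma, Benjamini-Hochberg adjusted p under 0.05), Ass1 was the 1 gene of the 7 that passed the threshold in any of the 6 comparisons, and it did so in STZ against Con. Of all genes, 0.163% (21) passed there. Because Ass1 was chosen with this contrast known, nothing is read from that count. The call was kept in 17 of 24 alternative settings. It was lost when only Con and STZ were fitted, with a replicate block, and when Con-FMT replicate 1 was left out, or replicate 2 of Con or of STZ, or either of replicates 2 and 3 of STZ-A10. The fold change itself ran from -0.85 to -0.69 over all 24.

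The 3 levels of Ass1 were rare in the table. Of the 12905 genes, 1 (0.00775%) had all Con and A10 libraries above all transplant libraries and these above all STZ and STZ-A10 libraries, and it was Ass1. The order was defined after the values of Ass1 were seen, so this count describes the table and is no test. The reverse order was likewise held by 0.00775% of genes. The upper step is narrow, at 0.034 on the log2 scale between the lowest Con and the highest A10-FMT library, and it depends on the scaling: with quantile normalization the sets overlapped by 0.049, and with each library centred on its median by 0.18. The step between Con and A10 on one side and STZ and STZ-A10 on the other was 0.47 as deposited, 0.56 with quantile normalization and 0.60 with median centring. That simpler separation, higher without streptozotocin, was shared by 222 genes (1.72%), and the opposite by 140 (1.08%).

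Hepatocytes are rich in Ass1, so its level was read beside albumin. Alb was 7.59, 104.59 and 97.95 RPKM in Con, 25.22, 14.94 and 2.84 in A10, and 42.32, 32.58 and 174.72 in A10-FMT. It was 8.8, 10.32 and 1.19 RPKM in Con-FMT, 0.32, 1.45 and 0.95 in STZ, and 2.79, 0.25 and 0.1 in STZ-A10. Albumin was thus low in the same STZ and STZ-A10 libraries in which Ass1 was low. A10 replicate 3, with 2.84 RPKM of Alb, held the highest Ass1 level of all libraries (39.23 RPKM), whereas STZ-A10 replicate 1, with 2.79 RPKM of Alb, held 17.99 RPKM. A10-FMT replicate 3, with 174.72 RPKM of Alb, held 25.53 RPKM of Ass1. In libraries with Alb under 15 RPKM (a limit set after the values were seen), Ass1 was 27.41 RPKM in 1 Con library, 31.56 and 39.23 in 2 A10 libraries, 22.22 to 25.49 in 3 Con-FMT libraries, 15.97 to 19.5 in 3 STZ libraries and 16.29 to 17.99 in 3 STZ-A10 libraries. The limit left no A10-FMT library and removed no library of Con-FMT, STZ or STZ-A10, so nothing is read from the order of the groups under it. The part of liver RNA in the Ass1 differences was not tested.

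**Figure D2:**
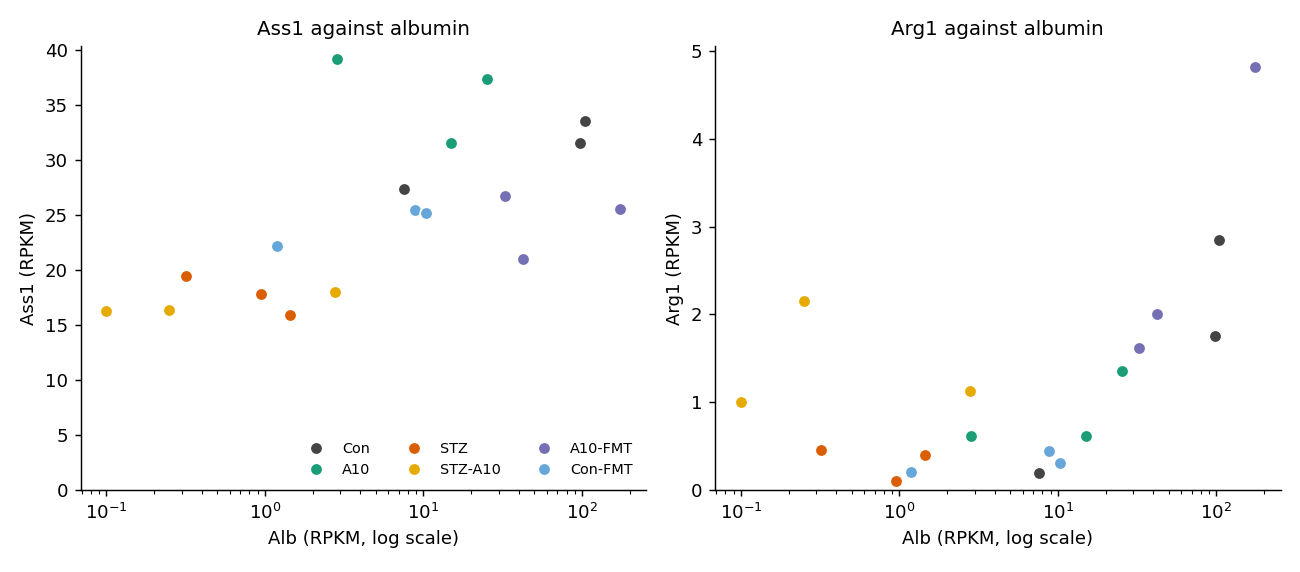
Ass1 (left) and Arg1 (right) in RPKM against Alb in RPKM (log axis), with 1 point per library coloured by group. At an Alb of 2.84 and 2.79 RPKM, an A10 and an STZ-A10 library differ in Ass1 by 39.23 against 17.99 RPKM, whereas the 6 libraries with the most Alb hold 1.36 to 4.82 RPKM of Arg1.

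The summed levels of markers of other cell types also differed between groups. The sum of 14 macrophage markers (led by Hmox1, C1qa and C1qb) was 677.76 to 894.46 RPKM in Con and 786.83 to 914.65 in A10, against 954.1 to 1053.58 in STZ and 906.08 to 1383.77 in STZ-A10, so that A10 and STZ-A10 overlapped. In the transplant groups it was 610.75 to 775.18 RPKM (A10-FMT) and 768.21 to 980.17 RPKM (Con-FMT). The sum of 8 adipocyte markers (led by Fabp4) was 31.78 to 170.28 RPKM in Con and 91.29 to 268.15 RPKM in A10, against 9.25 to 29.4 RPKM in STZ and 28.86 to 78.79 RPKM in STZ-A10. In the transplant groups it was 40.67 to 102.04 RPKM (A10-FMT) and 20.65 to 141.5 RPKM (Con-FMT), across the ranges of the other groups. The part of these cells in the Ass1 differences was not tested. In RNA from whole spleen, fewer cells that express a gene and less of its RNA per cell cannot be told apart.

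Asl, the next enzyme of the same pathway, did not share the pattern. It lies on chromosome 5 (130011258 to 130029247, minus strand). Con libraries held 9.63, 9.32 and 8.93 RPKM and STZ libraries 11.08, 9.78 and 8.29 RPKM, so the groups overlapped and the fold change was 0.05 (SE 0.147). The highest group was A10, with 12.22, 11.75 and 10.94 RPKM, and all 3 of its libraries were above those of Con (fold change 0.30, SE 0.147). Asl was the 1 of the 7 tested genes that was higher in A10 than in Con without overlap, against 11.7% of all genes, and 0 of the 7 were lower, against 4.81%. In Con-FMT against Con it was also higher without overlap, against 6.21% of all genes, while Ass1 was lower, against 5.52%. STZ-A10 held the widest spread, from 8.58 to 14.84 RPKM, and its fold change against STZ went from 0.18 to -0.02 without STZ-A10 replicate 1. In the transplant groups Asl was 9.29 to 10.14 RPKM (A10-FMT) and 9.74 to 11.39 RPKM (Con-FMT). The group means of Asl spanned 1.25-fold from lowest to highest, against 2.14-fold for Ass1.

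Arg1, the cytosolic arginase (chromosome 10, 24915221 to 24927484, minus strand), was the most variable of the 9 genes. The 18 libraries ran from 0.1 to 4.82 RPKM, or an estimated 2.0 to 101.5 reads, so the lowest values rest on a handful of reads. STZ libraries held 0.46, 0.4 and 0.1 RPKM, and Con-FMT libraries held 0.45, 0.31 and 0.21 RPKM. A10-FMT libraries held 2.01, 1.62 and 4.82 RPKM, all above the STZ, Con-FMT and A10 libraries. STZ-A10 libraries held 1.13, 2.15 and 1 RPKM, all above those of STZ and Con-FMT. Arg1 was the 1 of the 7 tested genes that was higher in STZ-A10 than in STZ without overlap, against 3.29% of all genes, and 0 of the 7 were lower, against 4.71%. Con libraries were divided, with 0.2, 2.85 and 1.75 RPKM, and A10 libraries held 1.36, 0.62 and 0.62 RPKM. The group means therefore ranged from 0.32 RPKM in STZ to 2.82 RPKM in A10-FMT, but with an SD of 0.486 on the log2 scale between libraries of a group.

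The fold change of Arg1 was 1.45 in A10-FMT against STZ and 1.44 in A10-FMT against Con-FMT (SE 0.361 each), and 0.01 in Con-FMT against STZ. It was 0.86 in STZ-A10 against STZ and -0.83 in STZ against Con. The last value was -1.31 without Con replicate 1 and -0.47 without Con replicate 2, and with a pseudocount of 0.1 in place of 1 it was -1.62. Without A10-FMT replicate 3 the fold changes of A10-FMT were 1.10 against STZ and 1.09 against Con-FMT. Without A10-FMT replicate 2, Arg1 passed the adjusted threshold against Con-FMT, in a fit that then called 2625 genes in place of 0 there, and without Con replicate 1 it passed against STZ, where the fit called 83 genes in place of 1.

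Arg1 was read beside albumin as well. The 6 libraries with Alb of 25.22 RPKM or more (2 of Con, 1 of A10 and 3 of A10-FMT) held 1.36 to 4.82 RPKM of Arg1. The 9 libraries with less Alb outside STZ-A10 held 0.1 to 0.62 RPKM. This division and the setting apart of STZ-A10 were made after the values were seen, so nothing is read from the lack of overlap. Within the 9 libraries Arg1 rested on an estimated 2.0 to 11.7 reads, and its association with Alb was not tested. A10 replicate 2, with the most Alb of the 9 (14.94 RPKM), held 0.62 RPKM of Arg1, as did A10 replicate 3 with 2.84 RPKM of Alb. Con-FMT replicate 2 held 10.32 RPKM of Alb and 0.31 RPKM of Arg1, and STZ replicate 1 held 0.32 and 0.46 RPKM. The 3 genes most like Arg1 over the 18 libraries were Apoc1, Serpina1d and Ahsg, all known as secreted products of the liver, with Pearson's r of 0.865, 0.786 and 0.759 on the log2 scale. The 20 hepatocyte markers summed to 202.68 to 557.08 RPKM in A10-FMT, 76.07 to 127.46 in Con-FMT and 65.75 to 82.93 in STZ. The urea cycle genes Cps1 and Otc, which start that cycle in hepatocytes, were at 0.27 to 4.08 and 0.16 to 1.17 RPKM in the 6 libraries with the most albumin, and at 0 to 0.32 and 0 to 0.06 RPKM in the 9 others. In STZ-A10, Alb was 0.1 to 2.79 RPKM and Cps1 at most 0.06 RPKM, while Arg1 was 1 to 2.15 RPKM. The exocrine pancreas markers were high in those 3 libraries, at 7616.16 to 11926.81 RPKM. In STZ replicate 1 they were at 7434.92 RPKM and Arg1 at 0.46 RPKM. They were highest in A10-FMT replicate 2, at 27943.49 RPKM, where Arg1 was at 1.62 RPKM. The sum of 7 markers of alternatively activated macrophages (led by Chil3), a state known for arginase 1, was 275.86 RPKM in STZ-A10 replicate 1 and 80.22 and 79.05 RPKM in the other 2, against 92.12 to 92.73 RPKM in STZ. That sum was highest in Con replicate 1, at 515.95 RPKM, where Arg1 was at 0.2 RPKM. The neutrophil sum was also highest in that library, at 15275.47 RPKM. Chil3 weighed most in the macrophage sum, with a mean of 85.7 RPKM over the libraries against 11.4 for Mrc1, the next gene. The sum therefore cannot be read as a level of these macrophages alone. The part of RNA of the liver, the pancreas or these macrophages in the Arg1 levels was not tested.

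Arg2, the mitochondrial arginase (chromosome 12, 79130777 to 79156301, plus strand), was lowest in the transplant groups. A10-FMT libraries held 1.7, 1.38 and 1.06 RPKM, and Con-FMT libraries held 1.11, 1.51 and 2.51 RPKM. STZ libraries held 2.37, 3.08 and 5.58 RPKM, and STZ-A10 libraries held 5.24, 2.26 and 3.01 RPKM. Con held 2.17, 2.14 and 3.35 RPKM and A10 held 1.7, 2.37 and 3.01 RPKM. All 3 A10-FMT libraries were below all STZ, STZ-A10 and Con libraries, whereas Con-FMT overlapped with STZ. Against STZ the fold change was -0.92 in A10-FMT and -0.76 in Con-FMT (SE 0.277 each). STZ replicate 3 weighed on both, which were -0.65 and -0.49 without it. In A10-FMT the median fold change of all genes against STZ was -0.15 beside which these values are to be read. Of all genes, 12.1% were lower in A10-FMT than in STZ without overlap, and of the 7 tested genes Arg2 and Oat were among them. In the other direction, Ass1 and Arg1 were higher in all 3 A10-FMT libraries than in all STZ libraries, against 2.33% of all genes.

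The 2 arginases thus differed in opposite directions in A10-FMT against STZ (1.45 for Arg1 and -0.92 for Arg2). Their levels over the 18 libraries had a Pearson's r of -0.359 on the log2 scale, given as a description over libraries that share groups. The genes most like Arg2 were Dennd5a, Plod1 and Gid4, with r of 0.88, 0.855 and 0.833.

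Nos2 (chromosome 11, 78920787 to 78960254, plus strand) stayed between 0.31 and 0.93 RPKM, or an estimated 18.5 to 49.4 reads. The group means ran from 0.5 RPKM in A10-FMT to 0.783 RPKM in STZ-A10, and of the 15 pairs of groups only these 2 did not overlap. Con held 0.37 to 0.72 RPKM and STZ 0.47 to 0.74 RPKM. Slc7a2 (chromosome 8, 40862396 to 40922308, plus strand) stayed between 0.27 and 0.82 RPKM, and none of its 15 pairs of groups was free of overlap. Its means ran from 0.397 RPKM in A10 to 0.61 RPKM in STZ-A10. The shares of all genes with such counts of pairs were not computed. The filter left both genes out of the fit, and no test of their groups is given.

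Odc1 (chromosome 12, 17544794 to 17551505, plus strand), which commits ornithine to polyamines, was highest in A10-FMT, with 327.13, 278.68 and 532.17 RPKM. All 3 libraries were above those of Con (260.8, 232.16 and 198.22 RPKM), A10 (193.51, 220.16 and 185.16 RPKM), Con-FMT (238.58, 222.1 and 209.43 RPKM) and STZ-A10 (137.07, 202.69 and 273.19 RPKM). They overlapped with STZ, whose libraries held 155.4, 279.27 and 308.37 RPKM. The first libraries of STZ and STZ-A10 were the lowest of all 18. The fold change of A10-FMT was 0.71 against Con-FMT, 0.67 against Con and 0.62 against STZ (SE 0.276 each). Without A10-FMT replicate 3 the first 2 were 0.44 and 0.40, and without STZ replicate 1 the last was 0.31. Without A10-FMT replicate 2, Odc1 passed the adjusted threshold against Con-FMT, in the same fit that called 2625 genes. Arg1 and Odc1 were the 2 of the 7 tested genes that were higher in A10-FMT than in Con-FMT without overlap, against 5.35% of all genes, and 0 of the 7 were lower, against 23.9%. In A10-FMT against Con, Odc1 was higher without overlap, against 3.86% of all genes, and Ass1 and Arg2 were lower, against 15.2%.

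Odc1 levels went with the summed RNA level of markers of red cell precursors. Cells were not counted. The summed level of 9 erythroid markers other than globins (led by Alas2, the first enzyme of heme synthesis in red cells) was lowest in STZ-A10 replicate 1 (863.43 RPKM) and highest in A10-FMT replicate 3 (4895.85 RPKM), the libraries with the lowest and the highest Odc1. Over the 18 libraries, the 2 measures had a Pearson's r of 0.945 on the log2 scale. The erythroid sum was 2099.92 to 4895.85 RPKM in A10-FMT and 1688.95 to 1971.6 RPKM in Con-FMT. The ratio of Odc1 to it was not constant and ran from 0.094 to 0.173 over the 18 libraries. It was 0.109 to 0.133 in A10-FMT, overlapping with the 0.113 to 0.125 of Con-FMT. In A10 it was 0.14 to 0.172, above the 0.099 to 0.122 of Con, while single libraries of STZ and STZ-A10 reached 0.173 and 0.159. The 3 genes most like Odc1 were Isg20, Mpp1 and Cd24a, with r of 0.978, 0.976 and 0.975. Mpp1 encodes a protein of the red cell membrane skeleton, and Cd24a a surface protein of red cell precursors and immature lymphocytes. The sum of 10 proliferation markers (led by Birc5) was also lowest in STZ-A10 replicate 1 (390.69 RPKM) and highest in A10-FMT replicate 3 (1486.64 RPKM). The part of red cell precursors or of dividing cells in the Odc1 differences was not tested.

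**Figure D3:**
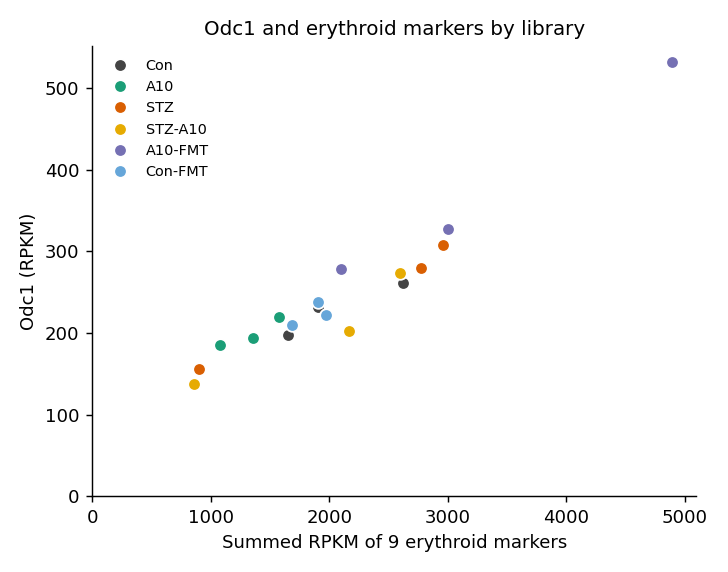
Odc1 in RPKM against the summed RPKM of 9 erythroid markers without globins, with 1 point per library coloured by group and both axes from 0. The points run from 137.07 RPKM of Odc1 at a sum of 863.43 to 532.17 RPKM at 4895.85.

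Oat (chromosome 7, 132557478 to 132576398, minus strand) varied least, from 57.55 to 82.59 RPKM. It was highest in STZ, with 82.59, 73.27 and 70.02 RPKM, above all libraries of Con (57.55, 67.27 and 63.67 RPKM), Con-FMT (61.75, 65.1 and 67.15 RPKM) and A10-FMT (62.77, 64.58 and 69.5 RPKM). STZ-A10 (60.59 to 71.84 RPKM) and A10 (61.09 to 70.25 RPKM) overlapped with STZ at its lower end. The fold change in STZ against Con was 0.26 (SE 0.097). Against STZ it was -0.21 in Con-FMT, -0.19 in STZ-A10 and -0.19 in A10-FMT (SE 0.097 each), and the last was -0.02 with each library centred on its median. Oat was thus higher in STZ than in Con without overlap, as were 5.77% of all genes, and Ass1 was lower, as were 7.07%. In Con-FMT against STZ the same 2 genes separated the other way, with Ass1 among 6.94% of genes that were higher and Oat among 6.22% that were lower.

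Gatm (chromosome 2, 122594467 to 122611303, minus strand) ran from 9.29 to 17.47 RPKM. Its highest value was in Con replicate 1, and the other 2 Con libraries held 12.2 and 10.86 RPKM. STZ libraries held 10.55, 9.29 and 13.75 RPKM, which gave a fold change of -0.24 (SE 0.161) that was -0.05 without Con replicate 1. A10 held 12.9 to 14.98 RPKM, above all libraries of STZ-A10 (12.39 to 12.77 RPKM) and Con-FMT (10.06 to 12.73 RPKM) by a narrow margin. In STZ-A10 against A10, Ass1 and Gatm were lower without overlap, against 14.9% of all genes, and 0 of the 7 were higher, against 7.69%.

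**Figure D4:**
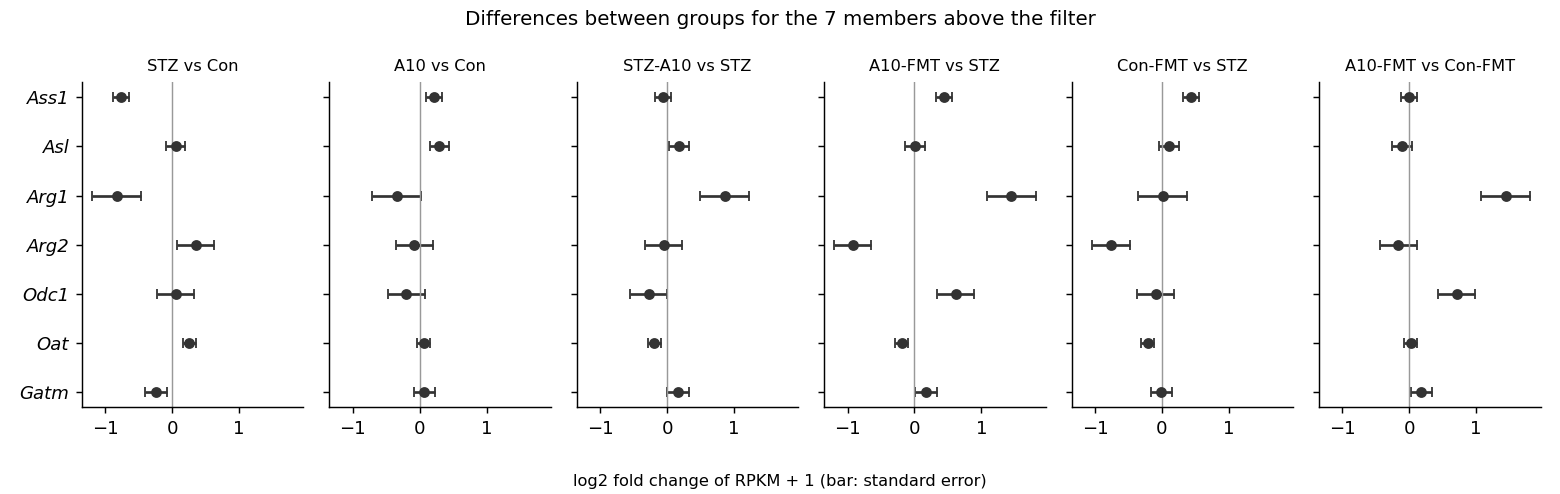
Log2 fold changes of RPKM + 1 (horizontal axis) with their standard errors for the 7 genes that passed the filter, in 6 comparisons of groups of 3 libraries. Ass1 is at -0.76 in STZ against Con and at 0.44 and 0.43 in the transplant groups against STZ, and Arg1 is at 1.45 and 1.44 in the comparisons of A10-FMT with STZ and Con-FMT.

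The 9 genes did not move as a unit. Over the 18 libraries, the 36 pairs among them had Pearson's r from -0.697 (Nos2 and Odc1) to 0.64 (Slc7a2 and Oat) on the log2 scale, and that of Ass1 and Asl was 0.125. The 5 genes most like Ass1 were Ppp1ca, Arpc3, Pdia3, Cox16 and Oxct1, with r of 0.901 to 0.879. Ppp1ca is a catalytic subunit of protein phosphatase 1, Arpc3 a subunit of the actin-nucleating Arp2/3 complex, Pdia3 a disulfide isomerase of the endoplasmic reticulum and Oxct1 the enzyme that activates ketone bodies for use. Asl was most like Galk1, Cope and Slc33a1 (r of 0.828 to 0.817), Oat most like Isg20l2, Pgrmc1 and Polr3g (0.823 to 0.781), and Gatm most like I830127L07Rik, Il1a and Ankrd28 (0.823 to 0.743). Each search ran over 9357 genes, and all points share the same 18 libraries and 6 groups, and the values given are the highest of each search.

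Of 81 other genes of arginine handling, in 7 lists, 70 passed the filter. With limma, none of the 70 passed the adjusted threshold in any of the 6 comparisons, in which 21, 1, 1, 1, 1 and 0 of all genes did. At an unadjusted p under 0.05, 7 were higher and 4 lower in STZ against Con (15.7% of the 70, against 11.1% of all genes). In A10 against Con 5 were higher and 1 lower (8.57% against 5.25%), and in STZ-A10 against STZ 2 were higher and 2 lower (5.71% against 2.93%). In A10-FMT 1 was higher and 9 lower than in STZ (14.3% against 17.2%), and in Con-FMT 0 were higher and 4 lower than in STZ (5.71% against 5.24%). In A10-FMT against Con-FMT 4 were higher and 15 lower (27.1% against 23.6%). Their median fold changes were close to those of all genes in each comparison, for example -0.02 against -0.01 in STZ against Con and -0.16 against -0.17 in A10-FMT against Con-FMT. Single libraries decided some calls. Without A10-FMT replicate 2, 17 calls appeared among the 70. Of these, 16 were in the comparison of the transplant groups, where 20.4% of all genes (2625) then passed, and 1 was Cps1 in A10-FMT against STZ, where 0.0621% (8) did. In A10-FMT against Con-FMT, Cps1 and Amd1 were among the higher genes in that fit and 13 genes, among them Stat3, Nfkb1, Irf1, Tnf and Sat1, were lower. Without Con replicate 1, Cps1 passed in STZ against Con and in A10-FMT against STZ, with 0.885% (114) and 0.644% (83) of all genes. Without STZ replicate 3, Gucy1b1 passed in STZ against Con, with 1.27% (164) of all genes, and Ifngr1 and Paox passed in A10-FMT against STZ, with 0.675% (87). Without A10-FMT replicate 3, Gucy1b1, Aldh18a1 and Slc7a1 passed in STZ against Con, with 1.82% (234) of all genes.

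Among the carriers of arginine (10 genes, 7 tested), the most abundant were Slc3a2, the heavy chain that several amino acid transporters share, at 82.28 to 119.17 RPKM, and Slc7a7, at 6.46 to 16.67 RPKM. Slc3a2 was 110 ± 9.21 RPKM (SD, n = 3) in STZ and 87.0 ± 5.11 RPKM in Con (fold change 0.33, SE 0.089, limma adjusted p = 0.115). The transporter Slc7a1, the usual route of arginine into most cells, was at a mean of 13.9 RPKM in STZ and 9.94 RPKM in Con (0.44, SE 0.158, limma adjusted p = 0.264). Over the 18 libraries the mean of Slc7a1 was 12.2 RPKM, against 0.504 RPKM for Slc7a2.

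In the urea cycle and citrulline supply list (12 genes, 10 tested), Glud1, which interconverts glutamate and 2-oxoglutarate, was the most abundant, at 25.75 to 58.89 RPKM. Cps1 was 1.56 higher on the log2 scale in A10-FMT than in STZ (SE 0.319, limma adjusted p = 0.088), from 0.88 to 4.08 RPKM against 0 to 0.02 RPKM. Alb was 32.58 to 174.72 RPKM in the same A10-FMT libraries and 0.32 to 1.45 RPKM in STZ. The part of liver RNA in the Cps1 difference was not tested. Aldh18a1, which begins proline and ornithine synthesis from glutamate, was at 20.8 ± 2.32 RPKM in STZ and 15.1 ± 0.0755 RPKM in Con (fold change 0.44, SE 0.117, limma adjusted p = 0.115).

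In the nitric oxide list (15 genes, 13 tested), Prmt1, a protein arginine methyltransferase, and Pts, an enzyme of the synthesis of the cofactor tetrahydrobiopterin, were the most abundant, at 60.91 to 96.3 and 23.71 to 51.53 RPKM. Gucy1b1, a subunit of the guanylate cyclase that senses nitric oxide, had the lowest adjusted p of the 70 genes in any comparison. It was 10.8 ± 0.945 RPKM (SD, n = 3) in Con and 4.76 to 7.77 RPKM in STZ (fold change -0.75, SE 0.157, limma adjusted p = 0.0635), and its means in the other 4 groups were 5.75 to 7.39 RPKM. Con therefore stood apart from the 5 other groups for Gucy1b1. Among the genes named in this and the neighbouring lists, Gucy1b1, Aldh18a1, Slc7a1, Cps1 and those gained without 1 library were picked after their values were seen.

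Among the polyamine genes (18, of which 17 tested), Oaz1, the antizyme that targets ornithine decarboxylase for degradation, was at 481.52 to 759.64 RPKM and Eif5a, the factor that carries the polyamine-derived residue hypusine, at 485.36 to 829.45 RPKM. The median fold change of the polyamine list was 0.16 in STZ against Con, where that of all genes was -0.01. The medians of the other lists ran there from -0.23 (creatine) to 0.01 (nitric oxide). In A10-FMT against Con-FMT the polyamine median was 0.00 (0.002), where that of all genes was -0.17. The other lists ran there from -0.45 (inducers of Arg1 or Nos2) to 0.09 (urea cycle and citrulline supply). In A10-FMT against Con-FMT, 2 were higher and 3 lower at an unadjusted p under 0.05 (29.4% of the 17, against 23.6% of all genes). In the creatine list (5 genes, 4 tested), Ckb and Gamt were the most abundant, at 6.2 to 25.11 and 1.53 to 4.85 RPKM, and 0 genes reached an unadjusted p under 0.05 in the 6 comparisons. In the list on use of arginine in protein and its sensing (6 genes, all tested), Rars, which charges tRNA with arginine, was at 33.43 to 54.46 RPKM and Ate1, which adds arginine to proteins, at 9.94 to 12.89 RPKM.

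In the list of signals known to induce Arg1 or Nos2 (15 genes, 13 tested), Ifngr1, a chain of the interferon gamma receptor, was among the most abundant, at 35.5 to 98.91 RPKM. Ifngr1 was 44.7 ± 9.18 RPKM in A10-FMT and 76.6 ± 12.1 RPKM in STZ (SD, n = 3; fold change -0.77, SE 0.172, limma adjusted p = 0.118). The median fold change of the list was -0.45 in A10-FMT against Con-FMT, where 8 of the 13 were lower at an unadjusted p under 0.05, and that of all genes was -0.17. Without A10-FMT replicate 3, the library with the lowest lymphoid sum (616.61 RPKM), 2 of the 13 were lower, the median of the list was -0.23 and that of all genes -0.09. The share of all genes at an unadjusted p under 0.05, in either direction, was 23.6% with that library and 3.6% without it. The counts of the list are of lower genes only. The part of lymphoid cells in these values was not tested. The genes Il4 and Il13, the cytokines known to induce Arg1, stayed under 1 RPKM in every library.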

How the data were processed

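Libraries of spleen poly(A) RNA were run on an Illumina HiSeq. The deposited values are RPKM, made by the authors from reads aligned with SOAPaligner according to the study's methods, whereas the submitters' processing notes name Bowtie 0.12.2 and mm10. The annotation version is not given in the sources used here. Groups came from the sample labels, and 0 columns were left without a sample. Of 19326 lines, 6 with 3 repeated names were left out, and 26 names had been turned into dates. Depth was estimated from the spacing of low RPKM values in genes with 1 transcript of at most 2 kb. Estimated reads cover counting error only, and the table holds no read counts.

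Group differences were fitted on log2(RPKM + 1) of the deposited values by limma-trend (limma 3.58.1, R 4.3.3), over all 18 libraries with 1 coefficient per group, for the 12905 genes with at least 1 RPKM in at least 3 libraries. Fold changes on this scale understate those of low genes. Two-sided p-values had a Benjamini-Hochberg adjustment over all genes tested (threshold 0.05). The fit was tested on simulated data. The 9 genes, the 7 lists, the marker lists and the comparisons were chosen with earlier results of these data known. Named outside the 9 are the 2 most abundant genes of each list, any gene past the threshold, and the 5 (Ass1) or 3 genes most correlated with a tested gene among those with a mean of at least 5 RPKM. Exceptions are identified where they occur. Values of some genes that this rule names are not reported here. Positions came from GENCODE M21 by symbol. STZ-A10 against A10 and both transplant groups against Con were added after the values were seen. The alternatives tried were a pseudocount of 0.1, no filter, quantile normalization, median centring, fits of the compared groups only, a replicate block and leaving out each library.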

Additional observations from a re-analysis of the deposited data

How the results depend on the processing

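The number of genes past the adjusted threshold in STZ against Con was 21, and it was 47 with a pseudocount of 0.1, 9 without the filter, 10 with quantile normalization, 5 with median centring and 0 when only Con and STZ were fitted. It ran from 0 (without Con replicate 2) to 234 (without A10-FMT replicate 3) when 1 library was left out. In A10 against Con it was 1, and 2 with a pseudocount of 0.1, 4 without the filter, 2 with quantile normalization, 2 with median centring and 1 to 21 with 1 library left out. Without the filter it was 6 in place of 1 in STZ-A10 against STZ and in Con-FMT against STZ, and 9 in place of 1 in A10-FMT against STZ. With only the compared groups it was 5 in A10-FMT against STZ and 1 in place of 0 in A10-FMT against Con-FMT, where a pseudocount of 0.1 also gave 1. With 1 library left out it was 1 in STZ-A10 against STZ, 1 to 87 in A10-FMT against STZ, 1 to 3 in Con-FMT against STZ and 0 to 2625 in A10-FMT against Con-FMT. The interaction of STZ and AOS gave 0 under every alternative, with 369 genes at an unadjusted p under 0.05 in the fit as reported. Of the 9 genes, 1 call was made, 0 with only the compared groups and 0 to 3 with 1 library left out. Of the other genes of arginine handling, 0 to 17 calls were made with 1 library left out. The causes were not tested.

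The labels give the groups the same replicate numbers. Deviations from the group means correlated at -0.385 to 0.571 (median 0.044) in the 45 pairs of libraries with the same number and at -0.584 to 0.511 (median -0.009) in the 90 others, so the numbers were not taken to pair the libraries. With the replicate number as a block, 3 genes passed in STZ against Con and 0 of the 9 genes did. The counts of the 5 other comparisons and of the other arginine genes were as reported.

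Of 63 fold changes of the 7 tested genes in 9 comparisons, 40 kept their sign in all 24 alternatives. Of the 1512 values, 1492 moved by less than 1 SD between libraries of a group. Median centring moved the Ass1 gap between the upper 2 levels from 0.034 to -0.18. The estimated reads per library were 2.0 to 101.5 for Arg1, 18.5 to 49.4 for Nos2, 20.7 to 108.7 for Arg2 and 27.2 to 82.2 for Slc7a2. Such counts limit what 3 libraries a group can show, most of all for the lowest values of Arg1.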
